A study of Homo sapiens with 3 samples.

Results

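The barcodes described are those of the day 5 library that held at least 500 and under 1000 unique molecular identifiers (UMIs), a UMI being the tag that marks 1 captured RNA molecule. Every barcode in that range was taken, which gave 50562 of the 2037119 barcodes deposited for day 5 and of the 2066111 deposited for the series. They held 38091967 UMIs, 35.7% of all UMIs of the library, with a median of 753 UMIs and 555 genes per barcode. They were compared with the 9219 called cells of the same library, barcodes of at least 2155 UMIs and 300 genes with at most 20% of UMIs from mitochondrially encoded genes, and with the 1332091 barcodes of 1 to under 100 UMIs, called near-empty below. The question was which transcripts made up a larger share of the low barcodes and which a larger share of the called cells.

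The study followed BJ cells, a human fibroblast line of wild-type genotype, through a chemical conversion to cells labelled as induced neurons. The cells were grown on poly-D-lysine in induction medium with forskolin, an activator of adenylyl cyclase, moved on day 2 to maturation medium with forskolin, and taken off forskolin on day 5. Libraries were made at days 0, 3 and 5, 1 per day. The labels describe the day 5 library as dissociated cells loaded with a 3' gene expression kit, while the library text names a chromatin accessibility kit. Days 0 and 3 are described as nuclei suspensions and enter only the count of shared barcodes. Since there was 1 library per day, no test was possible. Each value describes the barcodes of 1 library, and the 95% intervals (exact Poisson for levels, exact binomial for shares) cover counting error only.

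In a droplet experiment every droplet carries a barcode, whether or not a cell entered it. RNA that leaks from broken cells floats in the suspension and is captured in every droplet, and it is rich in processed messenger RNA of the cytosol and of mitochondria. RNA that stays in the nucleus includes long noncoding RNAs such as MALAT1, which sits in nuclear speckles, and unspliced transcripts, whose introns can carry stretches of adenines that prime the capture.

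The low barcodes formed a peak of their own in the distribution of UMIs. In bins of 50 UMIs above 50 UMIs, the fullest was 700 to under 750 with 6824 barcodes, and the emptiest below it was 150 to under 200 with 80. The limits of the range fell on its slopes. Barcodes of 450 to under 500 and of 500 to under 550 UMIs gave MALAT1 2.73% and 2.57% of UMIs, and mitochondrially encoded genes 11.2% and 11.1%. At the upper limit, barcodes of 950 to under 1000 and of 1000 to under 1050 UMIs gave MALAT1 1.94% and 1.9%, and mitochondrially encoded genes 13% and 13.4%. Of the low barcodes, 48171 would have passed the gene and mitochondrial limits of the called cells. 3 held under 300 genes, and 2391 (4.73%) held over 20% mitochondrial UMIs. Their barcode sequences recurred at day 0 in 249 cases (0.492%) and at day 3 in 162 (0.32%), beside 0.446% and 0.295% of all day 5 barcodes with a UMI.

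**Figure D1:**
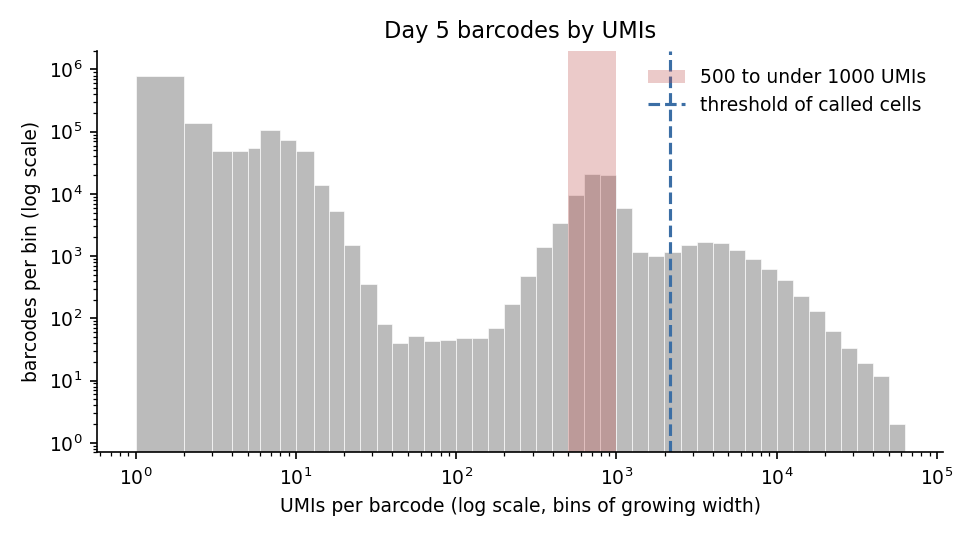
Number of day 5 barcodes (log scale) by UMIs per barcode (log scale). The shaded range of 500 to under 1000 UMIs holds a peak between the near-empty barcodes on the left and the called cells right of the dashed line at 2155 UMIs.

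The markers given for these barcodes split in direction. Levels are given as CPM, the UMIs of a gene per 1000000 UMIs summed over a class of barcodes. TUBB3, the neuronal beta tubulin (ENSG00000258947, chr16:89921392-89938761 on GRCh38), was at 805 CPM in the low barcodes (796 to 814), 185 in the called cells (182 to 189) and 549 in the near-empty barcodes (525 to 572). It was thus 4.34-fold richer in the low barcodes than in the called cells (4.24 to 4.44). VIM, the intermediate filament of fibroblasts and neural progenitors (ENSG00000026025, chr10:17228259-17237593), was at 5646 CPM in the low barcodes, 994 in the called cells and 3185 in the near-empty barcodes, a ratio of 5.68 over the called cells (5.63 to 5.73). MALAT1 (ENSG00000251562, chr11:65497688-65506516) went the other way, with 21700 CPM in the low barcodes, 72424 in the called cells and 47032 in the near-empty barcodes. The called cells held 3.34 times the MALAT1 share of the low barcodes (3.33 to 3.35). The low barcodes had the highest TUBB3 and VIM levels and the lowest MALAT1 level of the 3 classes. Barcodes of 200 to under 500 UMIs, outside these classes, had still higher TUBB3 (911 CPM) and VIM (6411 CPM), and more MALAT1 (28653 CPM) than the low barcodes.

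RNA classes changed along the range of UMIs per barcode. Mitochondrially encoded genes gave 11.7% of the UMIs of the low barcodes, 4.94% of those of the called cells and 21.9% of those of barcodes with 1 to under 50 UMIs. Cytosolic ribosomal protein genes gave 11.4%, 2.11% and 7.51% in the same order. Genes with introns of at least 100000 bases in all gave 19.4%, 46.4% and 22.8%, and MALAT1 gave 2.17%, 7.24% and 4.7%. Other genes with under 5000 bases of intron or none gave 14.2% in the low barcodes and 4.53% in the called cells. The low barcodes were not the extreme in every class. The 5398 barcodes of 200 to under 500 UMIs held more ribosomal protein (13.4%) and fewer long-intron UMIs (16.7%), with 11.3% mitochondrially encoded and 2.87% MALAT1. The barcodes of 1000 UMIs to under the threshold of the called cells lay between the low barcodes and the called cells in MALAT1 (3.4%) and long-intron genes (24.7%), and above both in mitochondrially encoded genes (12.8%). Fewer UMIs from 1 class and more from another cannot be told apart in shares.

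**Figure D2:**
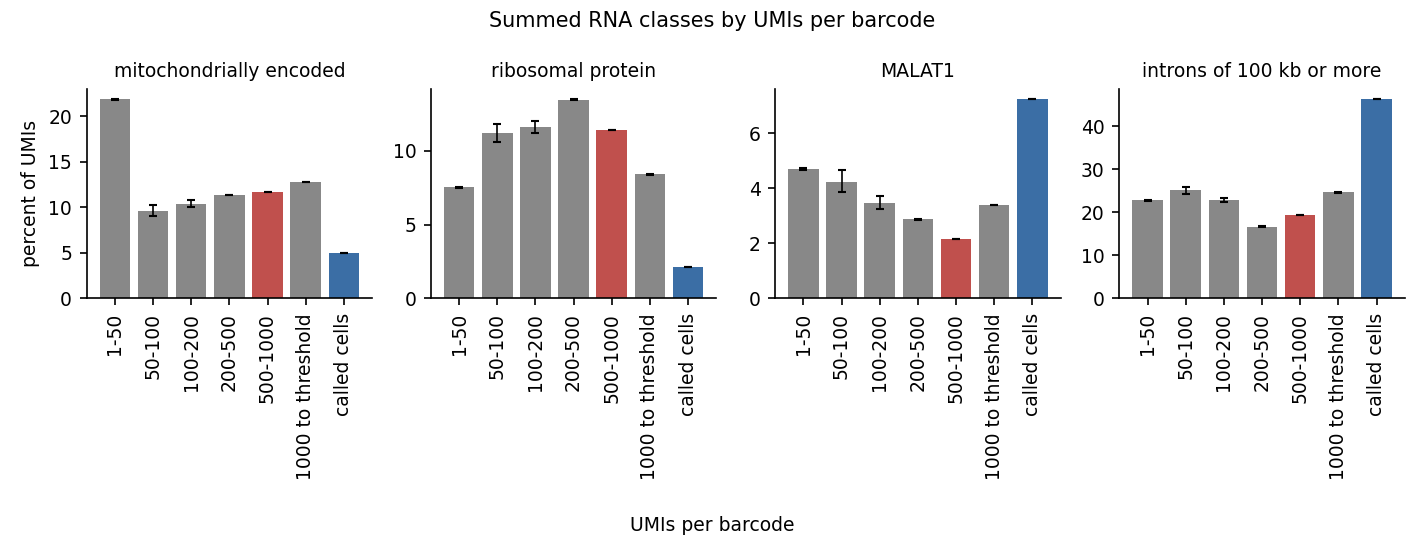
Percent of summed UMIs from 4 RNA classes (1 panel each) by UMIs per barcode at day 5, with exact binomial 95% intervals. Low barcodes (red) hold 2.17% MALAT1 and 19.4% long-intron UMIs, and called cells (blue) hold 7.24% and 46.4%.

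Across genes, those at 10 CPM or more in either sum were compared, and a gene was called richer or poorer where its levels differed 2-fold or more with separate intervals. Of 11873 genes compared, 2772 (23.3%) were richer in the low barcodes and 4153 (35%) were poorer, with a median log2 ratio of -0.40. The ratios in the richer direction reached less far than those in the poorer direction. At 50 CPM or more the largest richer ratio was 6.42, and 95% of the richer genes lay at or under 5.46, with a median of 3.14. In the poorer direction the largest ratio at 50 CPM or more was 12.2. The split depended on the scaling: with the trimmed mean of M values (TMM) in edgeR, 4411 genes were richer and 1864 poorer, and with the median of ratios 4684 and 1974. These put the median log2 ratio of the same genes at 0.24 and 0.28, so richer and poorer below are relative to all UMIs, and list medians stand beside the median of -0.40.

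**Figure D3:**
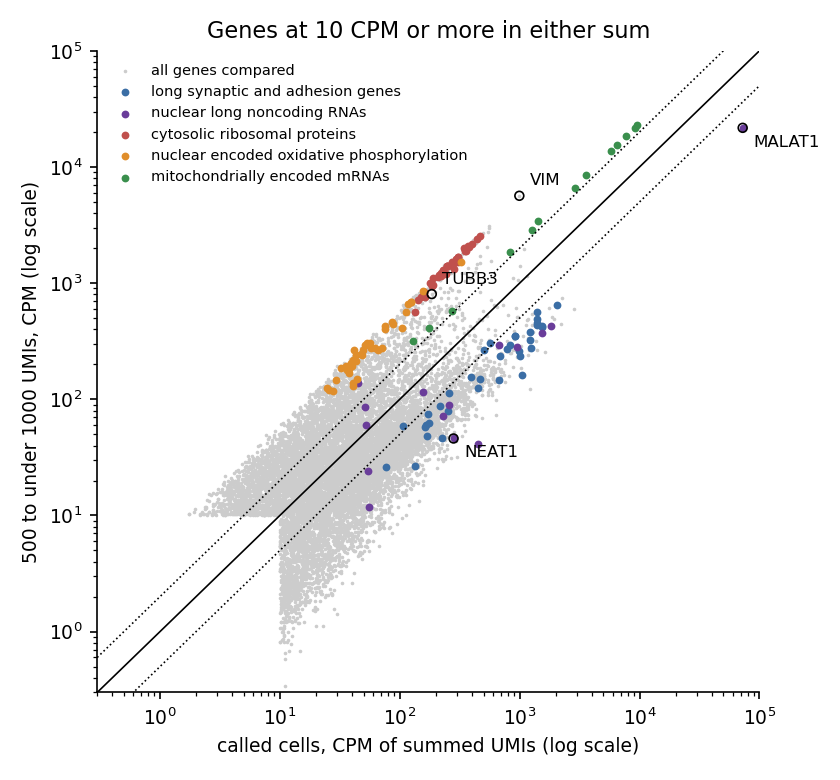
CPM of each compared gene in the low barcodes against the called cells, both on log scales, with 5 gene lists coloured, the line of equality drawn solid and the 2-fold lines dotted. Ribosomal protein and oxidative phosphorylation genes lie along the upper edge, and most long synaptic genes and nuclear noncoding RNAs lie below the lower 2-fold line.

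Transcripts of the protein synthesis machinery were richer in the low barcodes as a block. All 79 cytosolic ribosomal protein genes were called richer, with ratios of 4.2 to 5.89 and a median log2 ratio of 2.44. RPLP1, part of the ribosomal stalk, was at 3109 CPM in the low barcodes and 550 in the called cells, and RPS18, of the small subunit, at 2565 and 463. Of 24 genes for translation factors and other transcripts of the same class, 21 were richer and 0 poorer, with a median log2 ratio of 1.95. The noncoding GAS5, SNHG5, SNHG6 and SNHG8 are among the richer. EEF1A1, the elongation factor that delivers aminoacyl-tRNA, was at 2536 and 466 CPM, and TPT1, a growth-linked protein, at 1288 and 238. EIF3H, EIF4B and EIF2S3 were called in neither direction.

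Many of these mRNAs begin with a run of pyrimidines, the 5' terminal oligopyrimidine tract, which ties their translation to growth signals. The annotated starts in RefSeq (GRCh38.p14) were searched on the gene's own strand for C followed by at least 4 pyrimidines beginning within 2 bases of the start. The lines below give 8 bases before and 16 from the start, with the tract in capitals, for 2 ribosomal protein and 2 translation genes, for VIM, and for 2 long-intron genes that were poorer in the low barcodes. They are shown because the tract is present in some genes of both directions.
RPS18, chr6:33272067-33272090, plus strand: cttccgCTCTCTCTTCCacaggag
RPLP1, chr15:69452810-69452833, plus strand: cgcgagagCCCCTTTCCTCagctg
EEF1A1, chr6:73521017-73521040, minus strand: tgaacgttCTTTTTCgcaacgggt
TPT1, chr13:45341168-45341191, minus strand: gagtcggCCTTTTCCgcccgctcc
VIM, chr10:17228233-17228256, plus strand: cgtgatctgggaggcccacgtatg
ERBB4, chr2:212538787-212538810, minus strand: atagctgcacagtccggcccagag
GPC6, chr13:93226799-93226822, plus strand: tcccccCTCCTTTCTCCTTCCCTC

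The tract was common in ribosomal protein genes and near its overall share in the other richer genes. It was found at an annotated start of 17.3% of the 8614 compared protein-coding genes that had one in the table. Among ribosomal protein genes it was found in 81% of 63, and among translation factor genes in 13 of 14. Genes richer in the low barcodes carried it in 19.3% of 2172 and poorer genes in 16.6% of 2470. Without the ribosomal protein and translation genes, 17% of the richer genes carried it (15.4% to 18.7%). VIM, richer in the low barcodes, had no match in the window, which lies before the gene start given above for VIM. GPC6, a cell surface proteoglycan gene poorer in them, had a match of 18 bases. All GPC6 bases shown are pyrimidines, so the 18 run from the search limit to the end of the window and do not bound the tract.

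Energy metabolism transcripts were richer too. All 42 nuclear genes of oxidative phosphorylation were called richer, with a median log2 ratio of 2.33. UQCR10, a subunit of respiratory complex III, was at 267 CPM in the low barcodes (262 to 273) and 41.8 in the called cells (40 to 43.6). All 13 mitochondrially encoded mRNAs were richer, with a lower median of 1.23 and a narrow range of 2.11 to 2.43-fold. MT-CO3, a core subunit of cytochrome c oxidase, was at 23007 and 9519 CPM. In glycolysis 12 of 15 were richer and 0 poorer, GAPDH at 1492 and 275 CPM, with HK1, HK2 and GPI called in neither direction.

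Cytoskeletal transcripts stood with them. Of 28 mRNAs known to localize to neurites and growth cones, 18 were richer and 0 poorer, and of 11 tubulins 10 were richer. ACTB, beta actin, was at 1603 and 311 CPM, and TUBA1A, the main alpha tubulin of young neurons, at 2730 and 543. TMSB4X, which binds actin monomers, was 6.15-fold richer. MAP1B, a microtubule-binding protein of axons, was at 1961 and 1085 CPM, a ratio of 1.81 that did not reach the limit. The highest ratio at 50 CPM or more was that of TAGLN, an actin-binding protein of smooth muscle and fibroblasts, at 192 and 29.9 CPM.

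Chaperone, secretory and proliferation transcripts followed. All 17 genes listed for endoplasmic reticulum chaperones, translocation and the unfolded protein response were richer, HSPA5 (BiP) at 1120 and 370 CPM. They include the transcription factor genes ATF4 and XBP1. Of 15 heat shock and immediate early genes 14 were richer, with HSPA8, a constitutive chaperone, at 1101 and 183 CPM, while EGR1 was called in neither direction. Of 20 G2 and mitosis genes 12 were richer (19 with the median of ratios) and 0 poorer, and of 20 S phase genes 13 were richer and 1 poorer, BRIP1, a DNA helicase with long introns. MKI67, a marker of dividing cells, was at 210 and 54.6 CPM, and TOP2A at 608 and 177. All 19 replication-dependent histone genes that could be compared, of 68, were richer, with a median log2 ratio of 2.11. Since 10 CPM in either sum sufficed, histone genes could enter through the low barcodes alone, which favours calls of richer. Summed over all 68, this list took 1102 CPM of the low barcodes and 241 of the called cells. In cholesterol synthesis 8 of 17 were richer (13 with TMM).

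Fibroblast and matrix genes were richer in 18 of 21, with 0 poorer and a median log2 ratio of 1.65. COL1A2, a chain of type I collagen, was at 513 CPM in the low barcodes and 158 in the called cells, and SPARC, a matrix glycoprotein, at 912 and 261. COL5A2, COL14A1 and ACTA2 were called in neither direction. Summed over all 28 members the list took 3793 CPM of the low barcodes and 1190 of the called cells.

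Noncoding nuclear RNAs were poorer in the low barcodes. Of 15 compared in the list of nuclear long noncoding RNAs, 11 were poorer (8 with TMM) and 1 richer, NORAD, which is known to act in the cytoplasm. NEAT1, the scaffold of paraspeckles (chr11:65422774-65445540), was at 46 CPM in the low barcodes (43.9 to 48.3), 281 in the called cells (276 to 285) and 131 in the near-empty barcodes (120 to 143). KCNQ1OT1, an imprinted antisense RNA (chr11:2608328-2699994), was at 41.2 CPM and 446 CPM, so that the called cells held 10.8 times its share (10.3 to 11.4). Of 1151 long noncoding genes compared, 32 were richer and 1022 poorer, with a median log2 ratio of -2.23. Of the 673 antisense genes among them 8 were richer and 624 poorer (471 with TMM), DLGAP1-AS4 (7.11 and 85.6 CPM) with the largest ratio among them at 50 CPM or more. CNTN4-AS2 (5.49 and 67.2 CPM), annotated as a lincRNA, had the largest of all genes at that level. No source used here says whether strand was used in counting, so reads of an antisense gene and of its partner cannot be told apart.

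Long genes of synapses and cell adhesion were poorer. Of 36 compared, 33 were poorer and 0 richer, with a median log2 ratio of -1.58. With TMM 16 of 36 were poorer, with the median of ratios 13, and 0 richer with either. ERBB4, a neuregulin receptor (chr2:211375717-212538841, 1150110 bases of intron), was at 431 CPM in the low barcodes (424 to 438), 1527 in the called cells (1517 to 1538) and 589 in the near-empty barcodes (565 to 613). AUTS2, a regulator of neuronal development, was at 643, 2031 and 919 CPM, and PTPRD, a receptor phosphatase of synapses, at 569, 1402 and 640. In all of these the low barcodes had the lowest level of the 3 classes.

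Unlike the fibroblast list, the pan-neuronal, progenitor, neuronal transcription factor and transmitter lists held members of both directions on the scale of all UMIs. Over all 11873 genes compared, 23.3% were richer and 35% poorer, so calls in both directions do not by themselves set these lists apart. Of 29 pan-neuronal genes 7 were richer, 3 poorer (7 with low barcodes of 500 to under 750 UMIs or called cells of at least 5000, and 1 with TMM) and 19 in neither direction. TUBB3, INA and the neurofilament genes NEFL and NEFM were among the richer, and SYT1, the calcium sensor of synaptic vesicles with 581522 bases of intron, was poorer at 496 and 1164 CPM. STMN2, a microtubule regulator of growth cones, was at 532 CPM in the low barcodes and 332 in the called cells, DCX, which binds microtubules in migrating neurons, at 162 and 152, and MAP2, a dendritic microtubule protein, at 512 and 945. None of the last 3 reached a 2-fold ratio. Of 21 neural progenitor genes 10 were richer and 4 poorer (12 and 1 with TMM). SOX2, an intronless progenitor factor, was at 276 and 75.4 CPM and NES, an intermediate filament, at 580 and 125. RFX4, a ciliary and neural tube factor with 173114 bases of intron, was at 496 and 1933 CPM. Of 17 neuronal transcription factor genes 6 were richer and 4 poorer (8 and 0 with TMM), POU3F2, without introns, at 149 and 55.4 CPM and MYT1L, with 507401 bases of intron, at 60.9 and 161. Of 12 transmitter genes 3 were richer, the peptide genes SST, NPY and TAC1, and 2 were poorer, RELN and GRIN2B (0 with TMM and 4 with called cells of at least 5000 UMIs).

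Smaller lists gave mixed counts, beside 23.3% richer and 35% poorer over all genes compared. Of 20 splicing regulator genes, many with detained introns, 5 were richer and 2 poorer, RSRP1 and NKTR (8 and 0 with TMM), and of 12 p53 target genes 4 were richer and 1 poorer, SESN1 (6 and 0 with the median of ratios). Markers of other cell types were scarce. No erythroid gene reached 10 CPM, and 7 of 12 had 0 UMIs in the low barcodes. The 14 endothelial and immune genes summed to 43.7 CPM in the low barcodes and 15.5 in the called cells, mostly CLDN5 (21.2 and 6.48) and EGFL7 (14.3 and 3.73), and C1QB had 0 UMIs in both. Among 12 astrocyte, oligodendrocyte and Schwann genes, OLIG1 and MOG had 0 UMIs in the low barcodes. Their part in the other results was not tested.

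The log2 ratio fell as the total intron length of a protein-coding gene rose. The median was 2.02 in the 177 genes without introns, 1.73 under 5000 bases, 0.90 from 5000 to under 20000, -0.03 to under 50000, -0.75 to under 100000, -1.15 to under 200000 and -1.57 in the 1163 genes of at least 200000 bases. In the last class 978 genes (84.1%) were poorer in the low barcodes and 6 (0.516%) richer, and with TMM 508 were poorer. Without introns 169 (95.5%) were richer and 2 poorer. Long noncoding genes had medians from -1.60 without introns to -2.33 from 5000 to under 50000 bases, and none of these medians was above 0. Spearman's rho across genes between intron length and the log2 ratio was -0.63 over 11760 genes and -0.73 over 10605 protein-coding genes. For exon length it was -0.21 and -0.44, and exon and intron length were themselves related (0.48 and 0.54). Genes are not independent replicates, and all points share the same 2 sums.

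**Figure D4:**
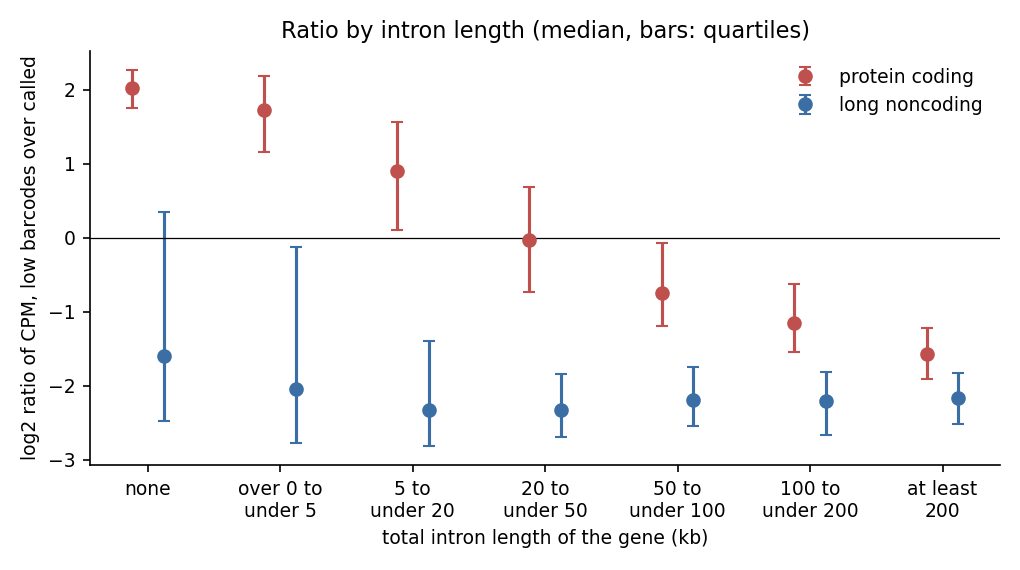
Log2 ratio of CPM, low barcodes over called cells, by total intron length in kilobases for protein-coding and long noncoding genes (points: medians, bars: quartiles). Protein-coding medians go from 2.02 without introns to -1.57 at 200 kb or more, while long noncoding medians stay below 0.

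Few protein-coding genes of at least 50 CPM went against their annotated intron length. That length is the whole annotated span of a gene less its exons, so the transcripts made in these cells may hold less intron. Which transcripts were made was not examined. Of 1907 with introns of at least 100000 bases, 22 were richer in the low barcodes. STEAP1B (72.8 and 13.8 CPM), MICOS10, a mitochondrial inner membrane protein (183 and 35.8), and LDHB, a lactate dehydrogenase subunit (396 and 92.3), had the largest ratios, and HMGB1, a chromatin protein, was the most abundant (1469 and 437). Of 1268 with introns under 20000 bases, 23 were poorer. ANGPTL1, an angiopoietin-like protein, was at 19 CPM in the low barcodes and 142 in the called cells. SPDYE2 (9.77 and 51.3) and POLR2J3 (13.8 and 66.9) belong to families of near-identical copies, so their counts are uncertain. WSB1 was at 183 and 528 CPM, and the splicing factor SF1 at 105 and 216. These genes were chosen after their values were seen.

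Single barcodes were compared after each was thinned at random to 500 UMIs, from median depths of 753 and 4374 UMIs. A UMI of TUBB3 was then found in 32.9% of low barcodes (32.5% to 33.3%) and 10.6% of called cells (9.97% to 11.2%), and before thinning in 44.8% and 60.3%. If all low barcodes had the same TUBB3 share, 33.3% would hold a UMI. VIM was found in 93.7% of low barcodes, with 94.2% from a single share, and in 45.2% of called cells (98.2% and 99.1% before thinning). NRXN3, a presynaptic adhesion gene chosen after its values were seen, was found in 20.5% of low barcodes with 21.7% from a single share. In called cells it was found in 22.1% with 47.4% from a single share (28.5% and 53.5% before thinning). No class of these barcodes is known to lack these genes, so a background share cannot be set beside them.

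Most single genes varied little beyond sampling among the low barcodes. The variance of a gene's UMIs over that of binomial sampling is 1 where all barcodes share 1 profile. Over 1784 genes with at least 0.05 UMIs per thinned low barcode its median was 1.03, beside 1.04 over 2163 genes in called cells at the same depth, so that the typical gene did not set the classes apart. In low barcodes 8 genes were over 1.5, each of them mitochondrially encoded or MALAT1. Among the 1770 other genes the largest was 1.26. In called cells 82 genes were over 1.5, 74 of them neither mitochondrial nor MALAT1, with NRXN3 at 4.61. By list, the ratio was 1.07 in low barcodes and 2.61 in called cells for pan-neuronal genes, 1.05 and 1.39 for progenitor genes, 1.24 and 3.55 for long synaptic genes, 1.74 and 4.17 for ribosomal protein genes, 2.81 and 9.25 for all long-intron genes, and 1.84 and 13.5 for MALAT1. Mitochondrially encoded UMIs varied in both, at 10.3 and 13.2. Called cells were chosen with at most 20% of these UMIs and low barcodes without such a limit, so the 2 values are not on equal terms. In low barcodes the mitochondrial share ran from 5.2% at the 5th percentile to 20% at the 95th. The median correlation there between pairs of the 13 genes over barcodes was 0.22.

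The rest of the profile hardly moved with the mitochondrial share. In the 13432 low barcodes with the least mitochondrial RNA and the 12369 with the most (6.54% and 17.9%), the other UMIs held 2.57% and 2.41% MALAT1, 12.9% and 13.2% ribosomal protein, and 22% and 21.6% long-intron UMIs. TUBB3 was at 927 and 896 CPM of these other UMIs, and VIM at 6372 and 6514.

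The 2 kinds of barcode overlapped little in long-intron and ribosomal protein shares, and more in MALAT1 and mitochondrial shares. The share of MALAT1 and long-intron genes together had its 5th and 95th percentiles at 17% and 26.2% in low barcodes and at 40.6% and 61.2% in called cells. Of the 50562 low barcodes, 75 (0.148%) reached the 5th percentile of the called cells. For ribosomal protein genes the order was reversed, with 8.6% to 14.8% in low barcodes and 0.8% to 5% in called cells, and 50513 low barcodes (99.9%) reached the called cells' 95th percentile. For mitochondrially encoded genes 17161 (33.9%) reached the called cells' 95th percentile of 13%. That percentile was taken after called cells were limited to at most 20% mitochondrial UMIs. MALAT1 alone reached the called cells' 5th percentile of 1.8% in 36145 low barcodes (71.5%) and their median of 6.8% in 103 (0.204%). These 103 held 32.6% long-intron and 7.44% ribosomal protein among their UMIs other than MALAT1, and TUBB3 at 456 CPM of those.

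**Figure D5:**
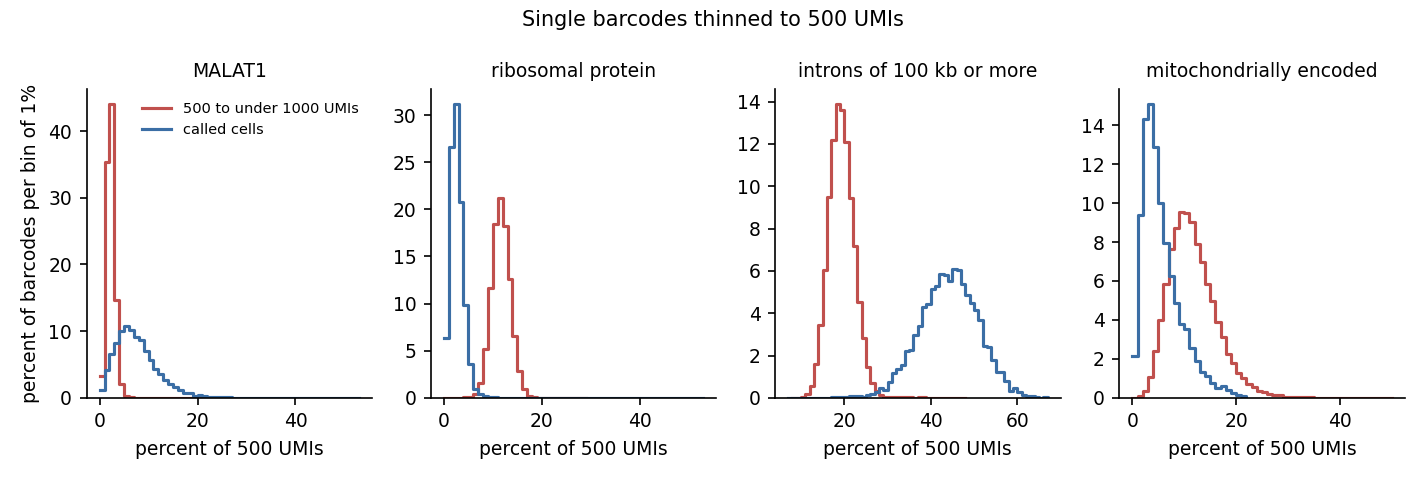
Percent of barcodes in bins of 1% (vertical axes) by the share of 4 RNA classes among 500 UMIs per barcode, for low barcodes (red) and called cells (blue). The curves for ribosomal protein and long-intron genes hardly overlap, with medians of 11.4% and 2.4%, and of 19% and 44.2%.

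Clustering of the 50559 low barcodes with at least 300 genes gave no cluster marked by a cell type list. At a Leiden resolution of 0.5 there were 2 clusters, of 23959 and 26600 barcodes, led by HMGB1 and SRA1. HMGB1 was 3.03-fold and SRA1 1.16-fold above the other cluster, and the 2 clusters had 1 and 0 genes 2-fold above. MALAT1 gave 2.12% and 2.22% of the UMIs of these clusters, mitochondrially encoded genes 11.5% and 11.9%, and TUBB3 was at 792 and 817 CPM. At a resolution of 1 there were 14, and 2 small ones stood apart. A cluster of 382 barcodes had 328 genes 2-fold above the other low barcodes, led by P2RY14, a nucleotide sugar receptor, at 6.13-fold, with ANGPTL1 among its first 10. Both genes were poorer in the low barcodes than in the called cells (P2RY14 at 8.53 and 72 CPM). MALAT1 gave 2.82% of the UMIs of that cluster, and TUBB3 was at 661 CPM. A cluster of 177 barcodes had 171 such genes, led by SYNJ2 at 6.57-fold, with MALAT1 at 2.26%. In none of the clusters at either resolution was a member of the pan-neuronal, progenitor, G2 and mitosis or fibroblast lists 2-fold above the other low barcodes, so no cluster was named.

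Fewer genes were called between the low and the near-empty barcodes than between the low barcodes and the called cells. Of 11038 genes compared, 329 (2.98%) were richer and 824 (7.47%) poorer in the low barcodes, with a median log2 ratio of 0.12. Both sums share their library, and the near-empty sum had 3866448 UMIs, fewer than the 51708522 of the called cells, which widens the intervals. None of the 79 ribosomal protein, 42 oxidative phosphorylation, 15 glycolysis or 11 tubulin genes was called, with median log2 ratios of 0.60, 0.44, 0.45 and 0.55. With TMM, 14, 5, 3 and 1 of them were richer. Mitochondrially encoded genes had a median log2 ratio of -0.79, and their sum was at 116898 CPM in the low and 218259 in the near-empty barcodes. MT-CO2 and MT-ND3 were called poorer, MT-ATP8 richer and 10 in neither direction. With low barcodes of 500 to under 750 UMIs 5 were poorer, and with TMM 0. MALAT1, NEAT1 and KCNQ1OT1 were poorer in the low barcodes, at 47032, 131 and 156 CPM in the near-empty barcodes (7 of the list of 15 with the mean of per-barcode CPM), and 2 of 36 long synaptic genes, LRP1B and DLG2, were poorer (0 with TMM).

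Most histone genes compared and a part of the cell division genes were called richer than in the near-empty barcodes. Of 19 replication-dependent histone genes compared, 13 were richer in the low barcodes and 1 poorer, HIST3H2A (17.5 and 80.7 CPM). Histone genes could enter at 10 CPM through the low barcodes alone, which favours calls of richer. Summed over all 68, the list took 1102 CPM of the low and 598 of the near-empty barcodes, under a 2-fold difference. Barcodes of 50 to under 200 UMIs could not serve as a second reference for the 19 compared. There were 309 with 35007 UMIs in all, 16 of the 19 genes had under 3 UMIs there, and 18 were too low in the low barcodes to be called richer against that floor. HIST2H2AC was at 132 CPM in the low barcodes, 28.7 in the near-empty barcodes and 25.4 in the called cells, and HIST1H2AG at 38.2, 6.21 and 8.26. Of 20 G2 and mitosis genes 9 were richer (14 with TMM, and 5 with totals without mitochondrial, ribosomal protein and MALAT1 UMIs), CENPF, of the kinetochore, at 766 and 236 CPM and MKI67 at 210 and 75.5. Of 20 S phase genes 1 was richer, MCM4 (6 with TMM), and 19 were called in neither direction. PEG10, an imprinted gene derived from a retrotransposon, was at 1630, 525 and 313 CPM in the low, near-empty and called sums, and TPR, a nuclear pore protein, at 327, 121 and 128. On the poorer side HMGA2-AS1 was at 7.95 and 70.3 CPM in the low and near-empty sums, JAKMIP2-AS1 at 4.91 and 40.6, and ANGPTL1 at 19 and 155.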

How the data were processed

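The day 5 matrix holds UMI counts per gene and barcode, deposited by the authors without normalization or removal of empty barcodes. The submitters' processing notes name Cell Ranger 4.0.0 and the build hg38 (GRCh38). How introns and strand were treated is not given in the sources. The matrix has 36601 genes and 106840404 UMIs, and 631077 barcodes hold 0. The members, gene lists and comparisons were chosen with earlier results of these data known.

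UMIs were summed per class. The limit of 2155 UMIs for called cells is the 99th percentile of the 10000 fullest barcodes divided by 10. Sums under 3 UMIs were set at 3 in ratios. No doublet caller was run on the low barcodes. Intron and exon lengths came from GENCODE 29, which matched 11773 of the 11873 genes compared. Intron length was the annotated span of a gene less the exons of all its annotated transcripts. Named genes were the 15 largest and 15 smallest ratios at 50 CPM or more with separate intervals (8 and 8 against near-empty barcodes), without unnamed clones, mitochondrial and ribosomal protein genes, up to 4 members per list of 25, and 14 marker genes; only some are described. Clusters used log counts per 10000, 2000 variable genes, 30 components and 15 exact neighbours (scanpy 1.11.5, igraph 0.11.9). The intron classes, the 0.05 UMI and 1.5 limits of the variance ratio, the splits of single barcodes by mitochondrial and MALAT1 share, the genes against intron length and the start sequences shown were chosen after the data were seen. TMM came from edgeR 4.0.16. A few genes are not reported here, and the counts of days 0 and 3 were not used.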

Additional observations from a re-analysis of the deposited data

How the results depend on the processing

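No paired analysis was possible because each day is 1 library. Variation between libraries or cultures could not be estimated. For low barcodes over called cells, the 2772 richer and 4153 poorer genes became 4684 and 1974 with the median of ratios, 4411 and 1864 with TMM (70.4% and 70.3% of calls richer, against 40%), and 1480 and 2175 with a limit of 50 CPM. Without a CPM limit 9166 were poorer. No gene called in one direction was called in the other in any of the 12 alternatives run. Several of these could not have shown a reversal. TMM, the median of ratios and totals without some classes move every ratio by 1 shared factor, too small to reverse a call. The CPM limits change no ratio. The limit of 50 CPM compares fewer genes, so that 7 glycolysis and 3 histone genes were richer. Totals without mitochondrial, ribosomal protein and MALAT1 UMIs put the median log2 ratio at -0.20.

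For low over near-empty barcodes, the 329 richer and 824 poorer genes became 28 and 329 against barcodes of 50 to under 200 UMIs (309 barcodes with 35007 UMIs), 138 and 1432 with totals without those 3 classes, and 168 and 143 at 50 CPM. The richer genes numbered 954 with the median of ratios and 993 with TMM. The poorer numbered 1258 with the mean of per-barcode CPM and 2493 without a CPM limit. Of the 28 and 329, 2 and 46 were shared with the 329 and 824, and 3 genes (MAP9, PCDHB2 and LTN1, at 6 to 8 UMIs there) changed direction. The floor of 3 UMIs is 85.7 CPM in that sum, so 257 of the 329 richer genes could not be called richer. There the log2 ratio reversed for HIST2H2AC (-0.11), TSPYL4 (-0.68), HIST1H1C (-0.66), DSP (-0.50), HIST1H2AG (-1.17), MT-CO2 (0.18) and the histone list (-1.72). TSPYL4, HIST1H1C and HIST1H2AG, with 0, 1 and 0 UMIs, and 16 of the 19 histone genes were set at the floor, so these values are no measured reversal. HIST2H2AC and DSP had 5 and 7 UMIs. For MT-CO2, with 671, the cause was not tested.

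The log2 ratio of UMI shares, low over called, kept its direction in every alternative run. For low barcodes of 500 to under 750, of 750 to under 1000, filtered low barcodes, called cells of at least 5000 UMIs and thinned barcodes it was, in that order, -1.63, -1.83, -1.73, -1.70 and -1.76 for MALAT1 (main -1.74), 1.17, 1.29, 1.17, 1.44 and 1.06 for mitochondrially encoded genes (1.24), 2.53, 2.36, 2.44, 2.88 and 2.14 for ribosomal protein genes (2.43), and -1.33, -1.21, -1.25, -1.33 and -1.19 for long-intron genes (-1.26). With unfiltered called cells it was 1.21, 2.43 and -1.25 for the last 3. At 50 CPM, rho with intron and exon length was -0.76 and -0.39. Thinned to 300 UMIs, TUBB3, VIM and MALAT1 were found in 21.48%, 81.38% and 99.75% of low barcodes.

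Leiden resolution 1 gave 14 clusters in place of 2, and an earlier run with approximate neighbours gave more at that resolution. With only the first listed start of each gene, a search made before any start was allowed, the tract was found in 12.8% of all genes, 15.4% of richer and 11.3% of poorer genes, and 73% of ribosomal protein genes.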

Other observations

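The near-empty barcodes held RNA of some immune genes that was all but missing from the low barcodes. C1QA, a complement gene of macrophages, had 82 UMIs in the near-empty barcodes, 1 in the low barcodes and 0 in the called cells, and C1QB had 88, 0 and 0. TYROBP, an adaptor of myeloid receptors, had 74, 5 and 2, and AIF1, a microglia and macrophage gene, 53, 1 and 1. The low sum was deeper than the near-empty sum, with 38091967 UMIs against 3866448. Not all immune genes were missing from the low barcodes. PTPRC had 15, 103 and 109 UMIs in the near-empty, low and called sums, and CD74 had 47, 111 and 63. Among erythroid genes HBB had 6 UMIs in the near-empty barcodes and 0 in the others, and HBA2 had 5 and 0. HBE1 had 4, 51 and 18 in the near-empty, low and called sums, and ALAS2 had 1, 1 and 36. The source of these UMIs was not tested.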
